A study of Mus musculus with 6 samples.

Results

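The glutathione transferases described here are the 10 genes Gstm1, Gstm2, Gstm4, Gstm5, Gstm6, Gstm7, Gsta4, Gstp1, Gstt1 and Gsto1, matched by symbol among the 55453 symbols of a count table of mouse RNA. These genes were chosen from earlier results of the same knockout and wild-type contrast, so their differences between the groups are given as a description, with no test. Glutathione transferases couple the thiol of glutathione to electrophilic centres of foreign compounds and of products of lipid oxidation, which makes them water-soluble and ready for export. The soluble enzymes work as dimers and fall into classes named by Greek letters: Gstm genes encode mu, Gsta alpha, Gstp pi, Gstt theta and Gsto omega enzymes. Many of their genes are known targets of NRF2, a transcription factor of the oxidative stress response, and the pi enzyme is widely found in human glial tumours.

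The series holds 6 libraries of poly(A)-selected RNA whose source label is SB28, a mouse glioma line, with C57BL/6 as the strain. The knockout (KO) group has 3 libraries with a PP2A KO genotype, titled PP2AcKO, and the wild-type (WT) group has 3 libraries titled PP2AcWT. Protein phosphatase 2A removes phosphate from serine and threonine residues of many proteins, and PP2Ac is its catalytic subunit; KO against WT is the comparison made here. The design text of the series instead places the deletion in hosts, as floxed PP2Ac with a Cre driven by LysM, a promoter of myeloid cells, and SB28 tumours in them. The labels do not settle which holds, nor whether the 3 libraries of a group were separate cultures or tumours. Every p-value therefore sets the difference between the groups against the spread of these libraries, which may be technical variation only. It may not extend to other cultures or tumours.

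Library totals were 40245915 to 46149908 counts in KO and 38735864 to 49344079 in WT. Ppp2ca, a gene of the PP2A catalytic subunit, was present at 217, 187 and 193 CPM (counts scaled to the size of the library) in KO 1, 2 and 3. It was at 274, 244 and 247 CPM in WT 1, 2 and 3, a log2 fold change of -0.36 ± 0.08 (SE). Ppp2cb, the other gene of that subunit, was at 125 ± 2.0 CPM in KO and 85.9 ± 2.3 CPM in WT (SD, n = 3 each). Of the exon bases of Ppp2ca, 41.3% lie under exons on the opposite strand. The strand setting of the counting is not given in the sources used here. Of 7 myeloid markers, Adgre1 had no count and only Cd68 reached 1 CPM. Their summed level was 4.75 to 5.31 CPM in KO and 3.17 to 3.58 CPM in WT, mostly Cd68, at 4.43 CPM in KO and 3.01 CPM in WT. The rest did not move one way: Ptprc had 11 counts in KO and 31 in WT and Csf1r 10 in KO and 23 in WT, whereas Lyz2 had 44 in KO and 1 in WT. Itgam and Aif1 had at most 2 counts in a group. Of 5 lymphoid markers, 4 had no count in any library, and the sum was at most 0.0511 CPM in KO and 0 in WT. The neural markers summed to 2.58 to 3.38 CPM in KO and 3.11 to 3.39 CPM in WT, with Aqp4 and Rbfox3 at 0 and the glial marker Gfap at 0.081 CPM in KO and 0.039 CPM in WT; within that sum Snap25 was at 0.142 CPM in KO and 1.32 CPM in WT, and Slc1a2 at 2.49 CPM in KO and 1.42 CPM in WT. Endothelial markers summed to 419 to 456 CPM in KO and 397 to 430 CPM in WT, nearly all Cdh5, and the 7 fibroblast markers to 1646 to 2278 CPM in KO and 2705 to 3652 CPM in WT. The fibroblast markers did not move one way: Col1a2 was at 15.01 CPM in KO and 855 CPM in WT and Col1a1 at 1459 CPM in KO and 1931 CPM in WT, whereas Dcn was at 32.7 CPM in KO and 1.27 CPM in WT, Pdgfrb at 129 CPM in KO and 81.2 CPM in WT, Pdgfra at 49.05 CPM in KO and 39.8 CPM in WT, and Col3a1 at 365 CPM in KO and 384 CPM in WT. The part of any cell type in the values below was not tested, and in bulk RNA fewer cells of a type and less RNA per cell cannot be told apart. KO 1 and WT 1 each differed from the rest of their group far more than the rest did among themselves, and the values of the 10 genes are therefore also given without both.

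Of the 10 genes, 6 form the mu cluster on mouse chromosome 3 (GRCm38), chr3:107895821-108044894, which spans 149.1 kb. Gstm5 opens the cluster on the plus strand at chr3:107895821-107898686, and the other members lie on the minus strand. They are Gstm7 at chr3:107926334-107931817, Gstm6 at chr3:107938847-107943749, Gstm2 at chr3:107981702-107986453, Gstm1 at chr3:108012255-108017973 and Gstm4 at chr3:108040408-108044894. Gsta4 lies at chr9:78182774-78209349 on the plus strand, Gstp1 at chr19:4035407-4037985 on the minus strand, Gstt1 at chr10:75783813-75798584 on the minus strand and Gsto1 at chr19:47854970-47864790 on the plus strand. All are protein-coding in the annotation, GENCODE M21. The coding sequences of the mu genes resemble each other: Gstm2 and Gstm6 were identical at 86.4% of aligned bases, Gstm1 and Gstm2 at 85.9%, and Gstm5, the most distant, at 72.1% to 73.1% with the others.

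The 250 bases before the RefSeq start site (GRCm38.p6) are shown for 5 of the genes. Gstm4 and Gstm7 are shown because they had the lowest and the third lowest fold change, Gsto1 because it was the most abundant and higher in KO, and Gstm5 and Gstp1 because they hold motifs of stress-responsive factors. Capitals mark matches, on either strand, to the core of the antioxidant response element that NRF2 with a small MAF protein binds (TGACNNNGC), to the AP-1 site (TGACTCA, which reads TGAGTCA on the other strand) and to the core of the xenobiotic response element of the aryl hydrocarbon receptor (GCGTG, which reads CACGC on the other strand).
Gstm4, chr3:108044860-108045109, minus strand: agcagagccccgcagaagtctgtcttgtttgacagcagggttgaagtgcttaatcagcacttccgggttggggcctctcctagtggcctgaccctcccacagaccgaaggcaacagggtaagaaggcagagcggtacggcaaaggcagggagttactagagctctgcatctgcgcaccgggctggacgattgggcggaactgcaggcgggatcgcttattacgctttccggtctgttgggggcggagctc
Gstm7, chr3:107931818-107932067, minus strand: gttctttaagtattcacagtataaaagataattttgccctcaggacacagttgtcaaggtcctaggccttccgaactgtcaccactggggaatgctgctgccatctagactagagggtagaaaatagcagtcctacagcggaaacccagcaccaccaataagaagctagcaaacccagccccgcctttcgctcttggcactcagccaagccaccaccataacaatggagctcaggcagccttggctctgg
Gstm5, chr3:107895604-107895853, plus strand: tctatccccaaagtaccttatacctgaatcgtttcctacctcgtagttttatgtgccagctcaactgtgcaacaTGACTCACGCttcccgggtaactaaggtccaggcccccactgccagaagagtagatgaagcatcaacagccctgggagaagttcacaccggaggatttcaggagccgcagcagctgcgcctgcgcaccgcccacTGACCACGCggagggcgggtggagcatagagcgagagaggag
Gstp1, chr19:4037913-4038162, minus strand: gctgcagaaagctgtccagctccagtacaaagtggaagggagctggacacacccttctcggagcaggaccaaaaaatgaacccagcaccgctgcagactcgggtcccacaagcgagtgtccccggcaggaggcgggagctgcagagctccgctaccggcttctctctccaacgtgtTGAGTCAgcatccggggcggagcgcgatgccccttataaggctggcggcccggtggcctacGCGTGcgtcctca
Gsto1, chr19:47854723-47854972, plus strand: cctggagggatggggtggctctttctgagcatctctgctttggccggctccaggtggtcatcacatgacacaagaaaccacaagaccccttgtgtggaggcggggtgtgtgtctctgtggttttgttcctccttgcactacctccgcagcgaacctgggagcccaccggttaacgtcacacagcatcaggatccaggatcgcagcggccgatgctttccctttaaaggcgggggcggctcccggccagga

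Among 32817 promoter windows of the same length, 10.2% held the antioxidant core, 4.5% the AP-1 site and 28.1% the xenobiotic core. The Gstm5 window held all 3 motifs: the antioxidant core from 42 to 34 bases before the start, the AP-1 site from 176 to 170 bases before it, and a xenobiotic core on the minus strand overlapping each of them. The Gstp1 window held an AP-1 site from 74 to 68 bases before the start and a xenobiotic core from 13 to 9 bases before it. The Gstm1 window held a xenobiotic core from 76 to 72 bases before its start. No match to these letters lay in the windows of Gstm2, Gstm4, Gstm6, Gstm7, Gstt1 or Gsto1, and that of Gsta4 was not analysed here. These matches are descriptions of letters, not of bound sites. The antioxidant core was searched only as TGACNNNGC, so variants of it with other letters were not counted in any window. The RefSeq start lies inside the GENCODE gene for 7 of the 9 windows: all 250 bases of the Gstt1 window, 73 of the Gstp1 window, 35 of Gstm4, 33 each of Gstm2 and Gstm5, 15 of Gstm6 and 3 of Gsto1 lie within that gene. The xenobiotic core of Gstp1, and its AP-1 site except for the first base, therefore lie within the gene as GENCODE annotates it. Windows set on other start sites would hold other bases.

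Of the 10 genes, 7 were lower in every KO library than in any WT library, 2 were higher in every KO library, and the groups overlapped for Gsta4 alone. Over all 14877 genes tested, 34.4% were lower and 33.9% higher without overlap of the groups, and since the genes were chosen from this contrast nothing is read from their share. At a threshold of 0.05 on the Benjamini-Hochberg adjusted p of edgeR's quasi-likelihood test, which is used below for genes outside the 10, 32.1% of all tested genes fell and 31.9% rose. The median log2 fold change was -0.44 over the 10 genes and -1.43 over the mu genes, beside -0.01 over all tested genes, whose quartiles were -0.48 and 0.46. All 10 passed the filter on low counts, but Gstm4 and Gstm6 did so through WT alone and Gstt1 through KO alone, so these 3 had to differ to be kept. The other 7 were over the filter in both groups.

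**Figure D1:**
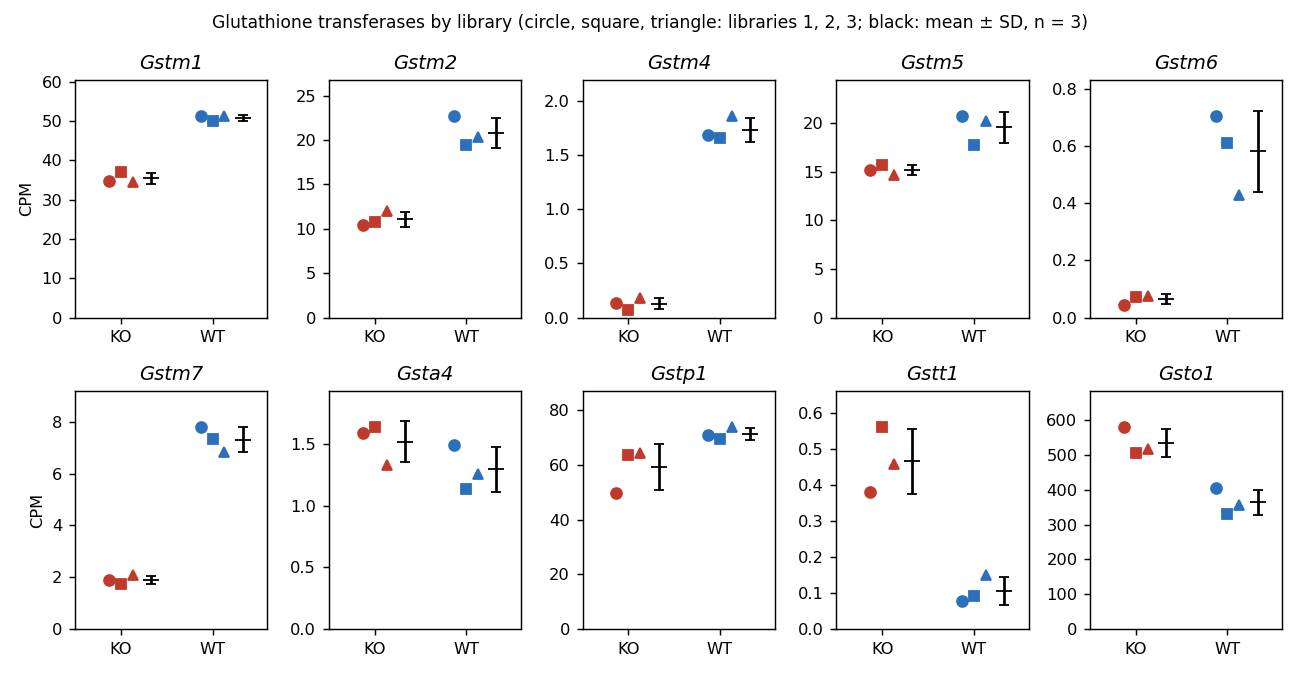
CPM of each of the 10 glutathione transferases (y axis, linear, from 0, scaled per gene) in the 3 KO libraries at the left (red) and the 3 WT libraries at the right (blue). Circle, square and triangle stand for libraries 1, 2 and 3 and the black bar for the mean ± SD; the groups overlap for Gsta4 alone, and Gstp1 shows the lone low KO library.

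The mu genes were all lower in KO, by amounts that differed widely between close neighbours. Gstm1, the prototype mu enzyme, which in human and mouse cells also binds the stress kinase ASK1, was at 34.8, 37.05 and 34.5 CPM in KO 1, 2 and 3, against 51.2, 49.98 and 51.2 CPM in WT 1, 2 and 3. The means were 35.4 ± 1.39 CPM in KO and 50.8 ± 0.706 CPM in WT (SD, n = 3 each). The 3 libraries of each group lay close together, and the log2 fold change was -0.52 ± 0.07 (SE) and -0.49 without KO 1 and WT 1. Gstm2, its closest relative here by coding identity, was at 10.4, 10.7 and 12.03 CPM in KO, against 22.7, 19.5 and 20.3 CPM in WT. All KO libraries of Gstm2 lay well below the WT libraries. The log2 fold change of Gstm2 was -0.92 ± 0.10, and -0.80 without KO 1 and WT 1.

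Gstm5, in rodents a mu enzyme of brain and testis, showed the smallest difference of the cluster. It was at 15.2, 15.7 and 14.7 CPM in KO, against 20.7, 17.8 and 20.3 CPM in WT, with a log2 fold change of -0.36 ± 0.09, and -0.31 without KO 1 and WT 1. WT 2 came nearest to the KO libraries, and the groups did not overlap. Of its exon bases, 13.9% lie under exons of 4933431E20Rik on the opposite strand, and the strand setting of the counting is not given in the sources used here, so reads of the pair cannot be told apart there. 4933431E20Rik itself fell, with a log2 fold change of -0.48 ± 0.09 and an adjusted p of 0.00168.

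Gstm7 was at 1.88, 1.73 and 2.07 CPM in KO, against 7.79, 7.35 and 6.82 CPM in WT. Its means, 1.90 ± 0.169 CPM in KO and 7.32 ± 0.486 CPM in WT (SD, n = 3 each), were 3.87-fold apart. This was the largest difference among the mu genes that were over the filter in both groups. The log2 fold change was -1.95 ± 0.12, and -1.89 without KO 1 and WT 1, and 3.89% of all tested genes lay at or below it.

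Gstm4 and Gstm6, mu enzymes with less well described substrates, were close to the detection limit in KO. Gstm4 had 6, 3 and 7 counts in KO 1, 2 and 3, against 86, 73 and 74 counts in WT 1, 2 and 3. That is 0.129 ± 0.053 CPM in KO and 1.73 ± 0.112 CPM in WT (SD, n = 3 each). Its log2 fold change of -3.73 ± 0.27 was the lowest of the 10 genes, and 1.16% of tested genes lay at or below it. Without KO 1 and WT 1 it was -3.78. From the summed counts, 16 in KO and 233 in WT, WT was 13.5 times KO, with a 95% exact counting interval of 8.12 to 23.96 that covers counting error only.

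Gstm6 had 2, 3 and 3 counts in KO, against 36, 27 and 17 counts in WT. The KO counts were alike and the WT counts spread widely, at 0.705, 0.612 and 0.428 CPM. The log2 fold change was -3.14 ± 0.39, and -2.75 without KO 1 and WT 1; by summed counts WT was 9.25 times KO, with a counting interval of 4.47 to 22.2. Gstm3, the one other gene of the cluster and no member of the group described here, had 0 counts in KO and 4 in WT and was not tested.

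Among genes of other classes, the differences ran in both directions. Gstp1, the pi enzyme, which also binds and restrains the kinase JNK, was at 49.6, 63.8 and 64.4 CPM in KO, against 71.0, 69.5 and 73.8 CPM in WT. KO 1 lay far below KO 2 and KO 3, which were near the WT libraries. The log2 fold change was -0.27 ± 0.10. It was -0.15 without KO 1 and WT 1, and -0.14 without KO 1 alone. Gstp1 is the gene here whose counts depend most on how shared reads were handled, since 51.0% of the 50-base windows of its coding transcripts occur also in Gstp2 or Gstp-ps; Gstp2 had 2 counts in KO and 18 in WT.

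Gsta4, an alpha enzyme that conjugates hydroxynonenal and related products of lipid peroxidation, was at 1.59, 1.64 and 1.33 CPM in KO, against 1.49, 1.13 and 1.26 CPM in WT. The highest WT library lay above the lowest KO library. The log2 fold change of 0.23 ± 0.18 was near its own error, and was 0.32 without KO 1 and WT 1.

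Gstt1, the theta enzyme, which acts on small halogenated compounds, had 17, 23 and 18 counts in KO, against 4, 4 and 6 counts in WT. That corresponds to 0.381, 0.561 and 0.460 CPM in KO and 0.0783, 0.0907 and 0.151 CPM in WT. All KO libraries exceeded all WT libraries, at a level where few reads decide each value. The log2 fold change was 2.13 ± 0.36, at or above which 3.99% of tested genes lay, and 2.08 without KO 1 and WT 1. The ratio of summed counts, 58 in KO and 14 in WT, was 4.48 with a counting interval of 2.47 to 8.70.

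Gsto1, the omega enzyme, uses a cysteine in its active site and reduces dehydroascorbate and mixed disulfides rather than mainly forming conjugates. It was at 579, 506 and 517 CPM in KO, against 404, 331 and 357 CPM in WT. In both groups library 1 was the highest, and all KO libraries lay above all WT libraries. The means were 534 ± 39.5 CPM in KO and 364 ± 36.6 CPM in WT (SD, n = 3 each), and the log2 fold change was 0.55 ± 0.09, and 0.58 without KO 1 and WT 1.

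Sequence shared with other genes, searched on both strands, limits these values unevenly. The share of 50-base windows found in other genes was 19.9% for Gstm1, 12.2% for Gstm5, 9.7% for Gstm6, 8.3% for Gstm2 and 0.5% for Gstm7, and no window of Gstm4, Gsta4, Gstt1 or Gsto1 was shared. For Gstm1 the partners were Gstm2, Gstm3 and the pseudogenes Gstm2-ps1 and Gm8834. For Gstm5 the partner was the opposite-strand gene 4933431E20Rik, which is no copy of it, so that share matters only if strand was ignored in the counting.

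Levels were compared between genes per kilobase of exon. In KO the order was Gsto1 at 264 ± 19.5, Gstp1 at 38.3 ± 5.41, Gstm1 at 24.1 ± 0.944, Gstm5 at 11.9 ± 0.401 and Gstm2 at 6.58 ± 0.517 CPM per kb (SD, n = 3). It went on with Gsta4 at 1.199 ± 0.131 and Gstm7 at 1.184 ± 0.105, whose libraries overlapped, and ended with Gstt1 at 0.306 ± 0.059, Gstm4 at 0.0755 ± 0.031 and Gstm6 at 0.0326 ± 0.0088 CPM per kb. In WT the first 5 genes stood in the same order, at 180.0 ± 18.1, 46.1 ± 1.39, 34.5 ± 0.479, 15.3 ± 1.24 and 12.4 ± 0.996 CPM per kb. Gstm7 followed at 4.57 ± 0.304, then Gsta4 at 1.02 ± 0.142 and Gstm4 at 1.02 ± 0.066, whose libraries overlapped, then Gstm6 at 0.292 ± 0.071, and Gstt1 came last at 0.0698 ± 0.025 CPM per kb. Gstm7 thus stood clear of Gsta4 in WT and level with it in KO, and Gstt1 stood above Gstm4 and Gstm6 in KO and below both in WT.

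Gsto1 alone made up 78.9%, 74.01% and 74.7% of the summed level per kb of the 10 genes in KO 1, 2 and 3, against 62.9%, 59.6% and 60.2% in WT 1, 2 and 3. The mu genes together made up 12.6% ± 0.739 in KO and 23.1% ± 0.739 in WT, and Gstp1 11.1% ± 1.93 in KO and 15.7% ± 1.06 in WT (SD, n = 3 each). The summed level of all 10 was 348 ± 13.3 CPM per kb in KO and 295 ± 21.2 in WT. Without Gsto1 the sum was 83.7 ± 6.19 CPM per kb in KO and 115 ± 3.61 in WT, so the direction of the total rested on that gene. Counted in CPM without the length, the share of Gsto1 was 81.0% in KO and 67.6% in WT.

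**Figure D2:**
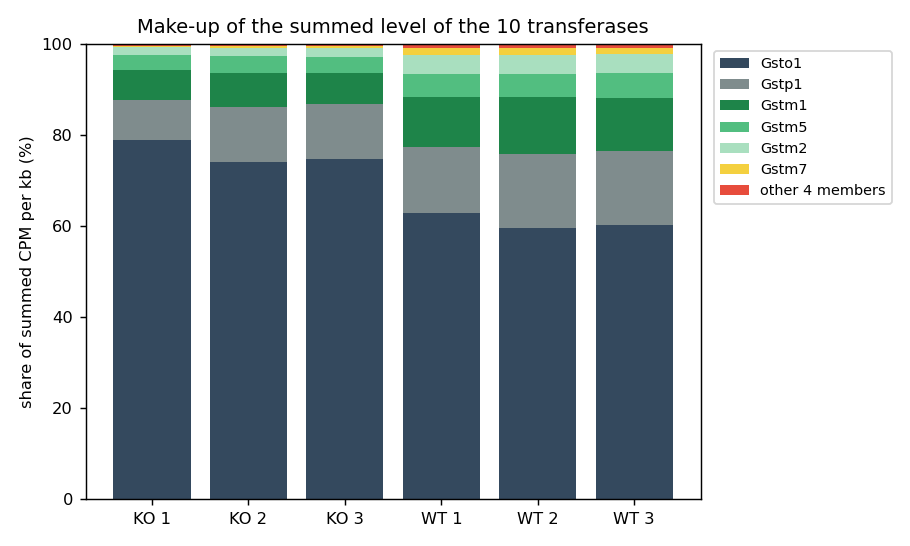
Share of the summed CPM per kb of the 10 glutathione transferases held by each gene (y axis, percent) in each library, the 3 KO libraries at the left and the 3 WT libraries at the right. Gsto1 holds 74.01% to 78.9% in the KO libraries and 59.6% to 62.9% in the WT libraries, and the green and yellow parts, Gstm1, Gstm5, Gstm2 and Gstm7, are narrower in KO.

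Genes beside the mu cluster were set against it, since the 6 mu genes share a locus. Within 100 kb of the cluster, 6 further genes were tested; 2 fell, 2 rose and 2 did not pass, with a median log2 fold change of -0.15. Gnat2, a transducin subunit of cone photoreceptors, fell, at 0.747 ± 0.046 CPM in KO and 2.03 ± 0.157 CPM in WT, with a log2 fold change of -1.45 ± 0.16 and an adjusted p of 6.59e-05; 4933431E20Rik is given above. Ampd2, an AMP deaminase, had a log2 fold change of 0.33 ± 0.12 (adjusted p = 0.0323) and Gnai3, a G protein subunit, of 0.21 ± 0.08 (adjusted p = 0.0474). For both, single libraries of the groups overlapped and the call was lost under library totals or upper-quartile scaling. That of Ampd2 was also lost without KO 2, KO 3 or WT 1, and that of Gnai3 without KO 1, KO 3, WT 2 or WT 3. Gm36211, at 0.10 ± 0.39, and Gm12500, at -0.40 ± 0.37, did not pass.

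**Figure D3:**
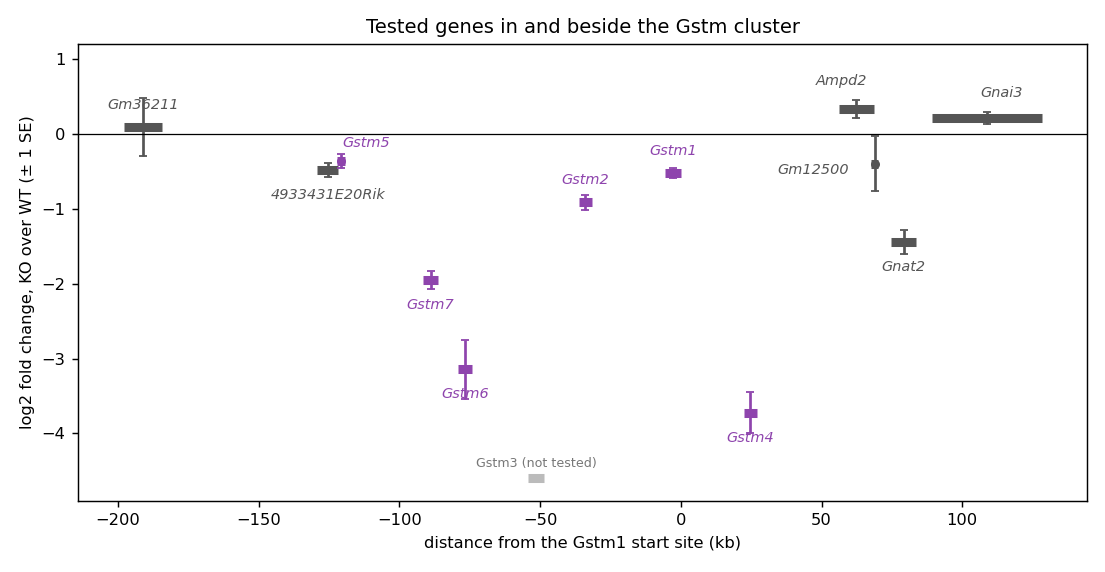
Log2 fold change of KO over WT (y axis, ± 1 SE) of the tested genes of the mu cluster (purple) and of the tested genes within 100 kb of it (dark grey), placed by distance from the Gstm1 start site in kb (x axis, bar length is gene length). Gstm4 and Gstm6 lie lowest, at -3.73 and -3.14, and Gstm5 and Gstm1 at -0.36 and -0.52; Gstm3, which was not tested, is drawn at the bottom with no fold change.

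The other loci differed in what lay beside them. Around Gstp1, 6 of 10 tested neighbours fell and 0 rose, with a median of -0.48. Among these was Unc93b1, the chaperone of nucleic-acid-sensing Toll-like receptors, with 19 counts in KO and 253 in WT, at -3.61 ± 0.25. It passed the filter on low counts through WT alone, as did another of the neighbours that fell, so both had to differ to be kept. Unc93b1 was named after its values were seen. Beside Gsto1, both tested neighbours rose: Gsto2 and Itprip, a calcium channel interacting protein at 1.72 ± 0.09 (adjusted p = 5.63e-07). Around Gsta4, 2 of 4 neighbours rose and 1 fell. Around Gstt1, 0 of 6 neighbours passed by edgeR, where 1 had an unadjusted p under 0.05, and 0 passed by DESeq2; with the replicate number as a block 3 rose and 1 fell, 4 rose without KO 1, 3 without KO 1 and WT 1, and 1 fell without KO 2.

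Of 18 further soluble transferases and proteins with the same fold, 17 were in the table and 8 were tested. Of these, 2 rose, 3 fell and 3 did not pass, with a median log2 fold change of -0.19. Gsto2, the second omega enzyme and the direct neighbour of Gsto1, rose, at 8.92, 9.44 and 11.8 CPM in KO, against 3.35, 4.08 and 3.70 CPM in WT, a log2 fold change of 1.44 ± 0.14 (adjusted p = 2.19e-05). Both omega genes were thus higher in every KO library. Clic4, an intracellular channel protein with the transferase fold, rose by 0.33 ± 0.06 (adjusted p = 0.00163), whereas Clic1, at 0.01 ± 0.08, did not pass and took the opposite sign under other scalings.

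Gstz1, the zeta enzyme, which isomerises maleylacetoacetate in tyrosine breakdown, fell to 19.0 ± 0.568 CPM in KO, against 28.7 ± 1.26 CPM in WT, with a log2 fold change of -0.59 ± 0.08 (adjusted p = 0.000146). Gstk1, the kappa enzyme of mitochondria and peroxisomes, had -0.89 ± 0.26 (adjusted p = 0.0157), and its call was lost without KO 1 (0.0529), without WT 3 (0.0547) and without KO 1 and WT 1 (0.0846). Gstcd, a protein with the C-terminal transferase domain, fell with -0.39 ± 0.08 (adjusted p = 0.00287). The theta genes beside Gstt1 did not pass: Gstt2 had -0.75 ± 0.29 (adjusted p = 0.0504) and Gstt3 0.57 ± 0.31 (adjusted p = 0.143). Gstt2 passed with the replicate block (0.0429), library totals (0.0335), upper-quartile factors (0.0366) and without KO 2 (0.0127). Gstt3 passed without KO 1 (0.0223). Genes below the filter included Gsta1 with 4 counts in KO and 0 in WT, Gsta3 with 7 in KO and 1 in WT, and Hpgds, the haematopoietic prostaglandin synthase, with 9 in KO and 0 in WT.

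The membrane-bound transferases form a separate protein family that also handles lipid mediators. Of 4 tested genes 3 rose and 1 fell, with a median of 1.88. Mgst1, the abundant microsomal enzyme, rose, at 21.5, 18.1 and 17.1 CPM in KO, against 5.66, 4.26 and 4.53 CPM in WT, a log2 fold change of 1.97 ± 0.14 (adjusted p = 3.09e-06). Mgst2, which can make a leukotriene conjugate, rose by 1.80 ± 0.18 (adjusted p = 2.83e-05). Mgst3 fell, at 5.27, 6.37 and 5.85 CPM in KO, against 26.8, 25.9 and 28.9 CPM in WT, with a log2 fold change of -2.22 ± 0.10 (adjusted p = 2.35e-07). Ptges, the inducible prostaglandin E synthase of this family, rose most, at 632, 736 and 714 CPM in KO, against 58.1, 64.6 and 66.1 CPM in WT, a log2 fold change of 3.46 ± 0.09 (adjusted p = 1.31e-08). No groups overlapped for these 4 genes, and the soluble and the membrane-bound family each held genes that were higher and genes that were lower.

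**Figure D4:**
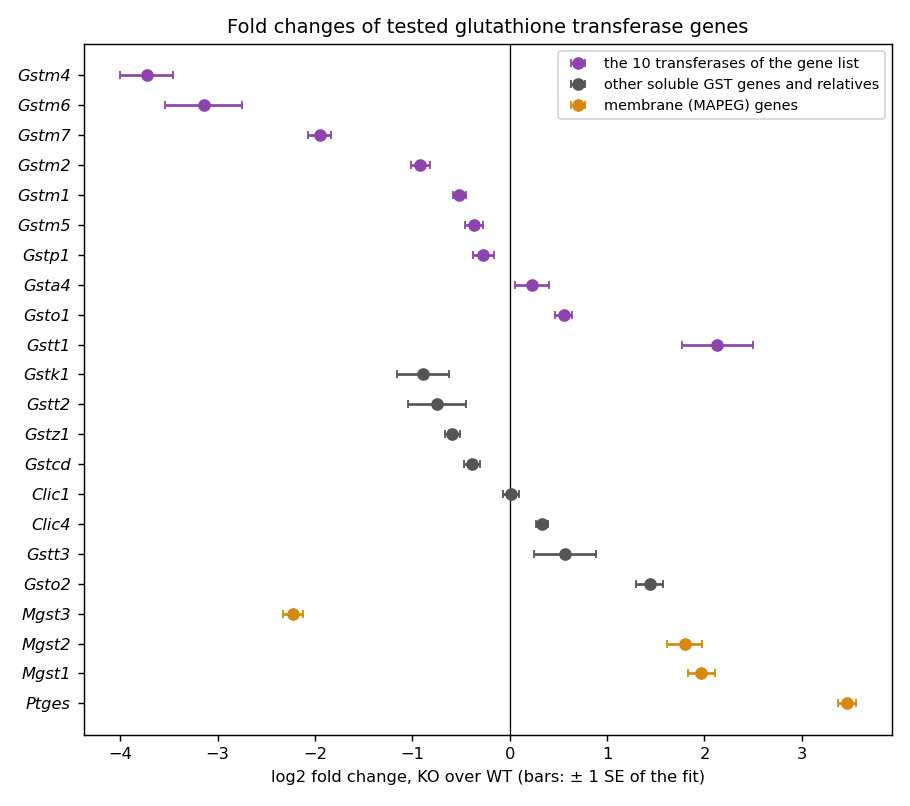
Log2 fold change of KO over WT (x axis; bars are ± 1 SE of the fit) for the 10 glutathione transferases (purple), the other tested soluble transferases and relatives (grey) and the membrane-bound family (orange), sorted within each group. The purple points run from -3.73 for Gstm4 to 2.13 for Gstt1, and the orange ones from -2.22 for Mgst3 to 3.46 for Ptges.

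The list of genes that make and recycle glutathione, the shared substrate, also held amino acid carriers and enzymes that break glutathione down. Of its 15 tested genes, 9 rose, 1 fell and 5 did not pass, with a median of 0.49, beside 31.9% higher and 32.1% lower over all genes. Slc7a11, the cystine carrier that feeds glutathione synthesis, rose, at 543 ± 63.7 CPM in KO and 98.1 ± 6.87 CPM in WT, a log2 fold change of 2.47 ± 0.10 (adjusted p = 1.13e-07). Its partner chain Slc3a2 rose by 1.13 ± 0.07 (adjusted p = 1.05e-06), and the amino acid carrier Slc1a4 by 0.74 ± 0.07 (adjusted p = 1.43e-05). Chac1, which breaks glutathione down, rose as well, by 2.20 ± 0.12 (adjusted p = 5.36e-07), so the list's genes that rose did not all act in synthesis. Gclc, the catalytic subunit of the first synthetic enzyme, rose by 0.78 ± 0.08 (adjusted p = 2.66e-05), while its modifier Gclm, at 0.19 ± 0.09, and the second enzyme Gss, at 0.14 ± 0.10, did not pass (adjusted p = 0.0776 and 0.254). Both passed with the replicate block (adjusted p = 0.000704 for Gclm and 0.0295 for Gss) and without KO 1 and WT 1, Gclm also without KO 2 and Gss without KO 1; with the block 11 genes of the list rose and 2 fell.

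Of the genes that export and process conjugates, 4 of 9 tested rose and 3 fell, with a median of 0.23; without WT 3, 1 fell. The conjugate pumps Abcc4 and Abcc1 rose, with log2 fold changes of 1.86 ± 0.07 (adjusted p = 5.4e-08) and 1.38 ± 0.06 (adjusted p = 2.1e-07). Abcc1 was at 594 ± 18.6 CPM in KO and 228 ± 5.83 CPM in WT. Dpep2, a dipeptidase counted among those that rose, had 130 counts in KO and 19 in WT, a log2 fold change of 2.86 ± 0.26. It passed the filter on low counts through KO alone, so it had to differ to be kept. Acy3, which removes the acetyl group from mercapturates, fell with -1.12 ± 0.17 (adjusted p = 0.000374). Among 12 tested peroxidases, glutaredoxins and other enzymes that use glutathione, 2 rose and 5 fell, with a median of -0.08; with the replicate block 5 rose, 4 rose without KO 1, 5 rose without KO 1 and WT 1, and 3 fell without WT 3. Glrx, a glutaredoxin, rose by 3.04 ± 0.09 (adjusted p = 2.07e-08) and Esd, which hydrolyses formylglutathione, by 0.73 ± 0.09 (adjusted p = 0.000126), while the glyoxalase Glo1 fell with -0.86 ± 0.07 (adjusted p = 9.39e-06). Gpx7, a peroxidase of the endoplasmic reticulum, fell to 2 counts in KO, against 227 counts in WT, so that WT was 105 times KO with a counting interval of 28.7 to 872. Gpx7 passed the filter through WT alone, so it too had to differ to be kept.

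Regulators of transferase genes were listed as well. Of 11 tested, 9 rose and 2 fell, with a median of 0.56. Nfe2l2, which encodes NRF2, rose, at 306 ± 32.3 CPM in KO and 166 ± 13.8 CPM in WT, a log2 fold change of 0.89 ± 0.09 (adjusted p = 4.22e-05). Keap1, the adaptor through which NRF2 is degraded, fell with -1.03 ± 0.13 (adjusted p = 0.000157). The small MAF partners Mafk and Maff rose by 1.33 ± 0.12 (adjusted p = 1.34e-05) and 1.03 ± 0.11 (adjusted p = 5.12e-05), and Ahr, the aryl hydrocarbon receptor, by 0.96 ± 0.09 (adjusted p = 1.64e-05). Messenger levels do not measure the activity of these factors.

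Of 14 known NRF2 targets outside glutathione use, 9 rose and 3 fell, with a median of 0.39. Hmox1, the heme oxygenase, rose by 3.83 ± 0.08 (adjusted p = 3.26e-09), the ferritin chain Fth1 by 2.19 ± 0.07 (adjusted p = 5.06e-08) and the thioredoxin reductase Txnrd1 by 1.59 ± 0.06 (adjusted p = 1.03e-07). Cbr1, a carbonyl reductase, fell to 0.672 ± 0.224 CPM in KO, against 8.55 ± 0.227 CPM in WT, with a log2 fold change of -3.66 ± 0.19 (adjusted p = 4.79e-07). The list thus held large differences in both directions. Of 15 phase I enzymes, which make electrophiles that transferases can conjugate, 5 rose and 4 fell, with a median of -0.01. Cyp1b1 fell with -2.84 ± 0.11 (adjusted p = 1.06e-07), Aldh3a1 with -2.64 ± 0.09 (adjusted p = 5.9e-08) and the epoxide hydrolase Ephx1 with -1.16 ± 0.07 (adjusted p = 9.07e-07), while Cyp4v3 rose by 2.36 ± 0.14 (adjusted p = 1.33e-06).

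**Figure D5:**
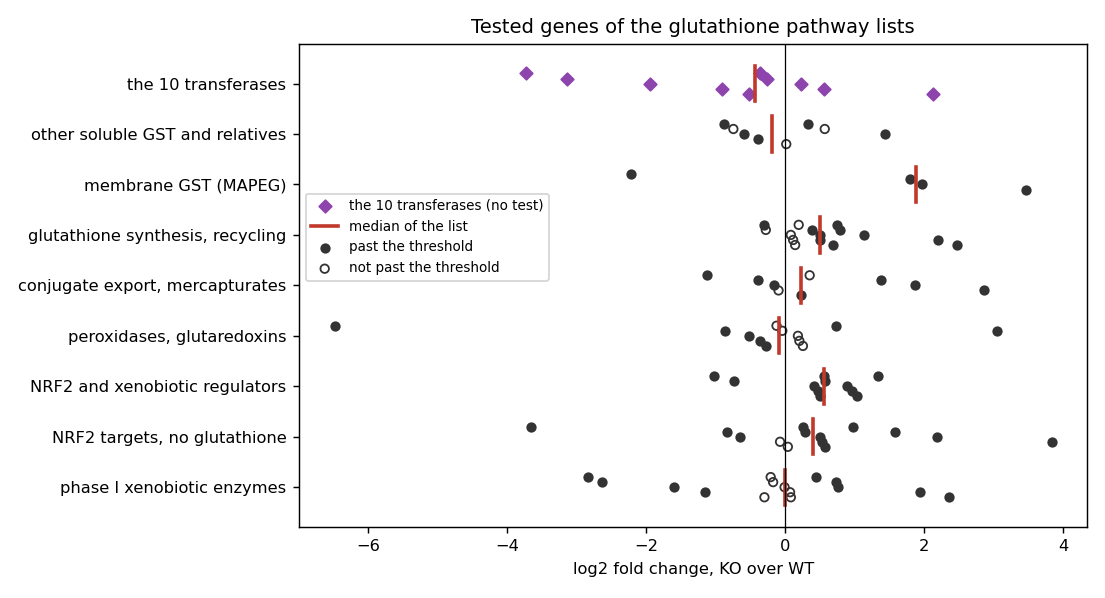
Log2 fold change of KO over WT (x axis) of the tested genes of each glutathione-related list (rows); filled circles passed the threshold, open circles did not, purple diamonds are the 10 transferases, given with no test, and red bars are list medians. The median of the 10 transferases is -0.44, that of the glutathione synthesis and recycling list 0.49 and that of the regulators 0.56.

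Transferases also bind stress kinases, and of 5 such kinases and partners 3 rose and 1 fell. Map3k5, which encodes ASK1, the partner of the mu enzyme, rose, at 37.7 ± 0.205 CPM in KO and 11.6 ± 0.481 CPM in WT, a log2 fold change of 1.70 ± 0.08 (adjusted p = 2.03e-07). Traf2, an adaptor, rose by 0.47 ± 0.10 (adjusted p = 0.00292). Mapk8, which encodes a JNK, had 0.37 ± 0.11 (adjusted p = 0.017) and Jun, its substrate, -0.31 ± 0.11 (adjusted p = 0.0366). Neither of these calls held without WT 2 or without WT 3, and that of Jun was also lost without KO 1.

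The profile of Gstm4, the gene with the largest difference, was set against all tested genes by the Euclidean distance of centred log2(CPM + 0.1) values over the 6 libraries. The 3 nearest profiles were those of Rian, a non-coding RNA, at a distance of 0.17, Tiam1, a guanine nucleotide exchange factor, at 0.22, and Ppl, the junction protein periplakin, at 0.38. Rian had 3 counts in KO and 122 in WT, Tiam1 was at 1.37 ± 0.322 CPM in KO and 12.8 ± 0.064 CPM in WT, and Ppl at 4.17 ± 0.374 CPM in KO and 32.6 ± 1.21 CPM in WT. All 3 were lower in every KO library than in any WT library, a shape that follows from choosing the nearest profiles. Rian passed the filter on low counts through WT alone, so it had to differ to be kept. The log2 fold changes were -5.08 for Rian, -3.22 for Tiam1 and -2.965 for Ppl, beside -3.73 for Gstm4. Centring removes the level of a gene, and Tiam1 and Ppl were more abundant than Gstm4 in both groups.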

How the data were processed

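The deposited values are whole-number read counts for each gene symbol, not normalized, and the authors gave 1 column to each library. The submitters' processing notes name the builds GRCm38 and mm10 and, as tools, HTSeq 0.11.2, STAR 2.7.1a, fastp 0.20.0, limma 3.48.3 and edgeR 3.34.0, with no roles; how shared reads and strand were handled is not given in the sources used here. Columns were matched to samples by title.

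Of 27491 symbols with a count, filterByExpr of edgeR 4.0.16 (minimum count 10, about 0.235 CPM) kept 14877. Libraries were scaled by TMM (0.967 to 1.035) and compared with the quasi-likelihood F-test (R 4.3.3), adjusted over all tested genes at 0.05. The fit was tested on simulated counts with few genes changed and independent noise between libraries. That simulation does not cover a contrast where so many genes differ and where libraries deviate together. CPM values use the TMM-scaled library sizes, and counting intervals are 95% exact. Each SE of a log2 fold change was derived from the quasi-likelihood F statistic, as the absolute log2 fold change over the square root of F. Alternatives were other scalings, no filter, DESeq2 1.42.0, a replicate block and libraries left out.

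The 10 genes, the lists and the tests were chosen with earlier results of these data known. Named are the 10 genes, all tested transferases of the soluble and membrane lists, up to 4 genes of each pathway list with the smallest adjusted p, the tested neighbours of the mu cluster, Ppp2ca and the 3 profiles nearest to Gstm4. Gclc, Gclm, Gss, Keap1, Itprip, Unc93b1, Gsta1, Gsta3, Gstm3, Gstp2, Hpgds and Ppp2cb were added after their values were seen. Positions, exon lengths and shared 50-base windows came from GENCODE M21 and promoter sequences from RefSeq, matched by symbol: 9 of 10 genes had a window.

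No pair of libraries lay within sampling noise: chi-square per degree of freedom was 48.4 and 42.1 for KO 1 against KO 2 and KO 3 and 3.41 between these, and 40.8, 29.7 and 4.61 for the WT pairs in the same order. Same-numbered KO and WT libraries deviated together from their group means (r = 0.73, 0.43 and 0.41 for numbers 1, 2 and 3). The labels do not say that the numbers pair the libraries, so the main test was unpaired. The numbers were used as pairs only in the replicate block, which is an alternative. Only number 1 was set apart, since KO 2 with WT 3 (r = 0.48) and KO 3 with WT 2 (r = 0.35) deviated together about as much.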

Additional observations from a re-analysis of the deposited data

How the results depend on the processing

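Under 13 alternatives the log2 fold change of Gstp1 ran from -0.35 to -0.14; for the 10 transferases such values are descriptions. Of 728 values of the 56 other named genes, 690 kept direction and side of the threshold, 19 lost the call, 11 gained it and 8 changed sign. Clic1 changed sign under library totals (-0.069), upper-quartile factors (-0.049) and with single libraries left out (-0.027 to 0.10), and Gm36211 with single libraries left out (-0.207 to 0.42) and without both libraries numbered 1 (-0.51). Library totals and upper-quartile factors shifted the median of all genes to -0.09 and -0.07.

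Counts of called genes in small lists moved as follows; the cause was not tested. With libraries left out one at a time, 1 to 2 export genes fell (3 with all libraries), 2 to 4 peroxidases and glutaredoxins rose and 3 to 5 fell, 0 to 1 kinase partners fell, 0 to 1 neighbours of the mu cluster rose, and 0 to 4 neighbours of Gstt1 rose and 0 to 1 fell. Without both libraries numbered 1, 2 glutathione synthesis genes fell, 5 peroxidases and glutaredoxins rose and 3 Gstt1 neighbours rose. With no filter, 2 membrane-bound transferases fell and 1 Gstt1 neighbour went each way. Library totals and upper-quartile factors each left 0 higher mu cluster neighbours and 1 lower Gstt1 neighbour.

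With the replicate block, which pairs same-numbered libraries, Gstt2 (0.0429), Gclm (0.000704) and Gss (0.0295) passed, 11 glutathione synthesis genes rose and 2 fell, 5 peroxidases and glutaredoxins rose, and 3 Gstt1 neighbours rose and 1 fell; it changed no other call of the 56 genes. Depth limits Gstm4 and Gstm6 in KO and Gstt1 in WT, where 8 to 16 counts stand behind a group's value.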
